A study of Danio rerio with 14 samples.

Results

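Peaks of oxidative phosphorylation genes were taken from ATAC-seq profiles of zebrafish cardiomyocytes as all nuclear peaks whose deposited KEGG pathway terms hold "Oxidative phosphorylation" and do not hold "mTOR signaling pathway". The rule gave 50 of 16610 peaks in 1 table and 30 of 6339 in the other, at 50 genes in all, of which 27 had a peak in both tables, 21 only in the first and 2 (ndufs1 and atp5f1c) only in the second. The mTOR clause left out 6 and 3 peaks of V-type ATPase genes. ATAC-seq inserts sequencing adapters into open chromatin, so that reads pile up over accessible promoters and enhancers.

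Oxidative phosphorylation is the last stage of respiration in mitochondria. Complexes I to IV pass electrons from NADH and succinate to oxygen, all but complex II pump protons across the inner membrane as they do so, and complex V, the ATP synthase, uses the returning protons to make ATP. Adult heart muscle relies on this route for its energy, and a few subunits exist as muscle-type and general isoforms. The KEGG map also holds subunits of the V-type ATPase, a proton pump of lysosomes and other vesicles that is not part of the respiratory chain.

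The study examined AP-1, the dimer of Fos and Jun proteins, in the regenerating heart, with 14 libraries of 6 groups, each made from the pooled ventricles of 6 adult hearts. The first table holds 2 libraries each of uninjured cardiomyocytes sorted on the myl7:nucDsRed reporter, cardiomyocytes sorted on the gata4:EGFP reporter 4 days after cryoinjury, and uninjured cardiomyocytes of the CM:junbaOE and CM:junbbOE lines, called junba and junbb here, collected 7 days after overexpression was induced. The second holds 3 libraries each of wound border cardiomyocytes of the CM:A-Fos line 4 days after cryoinjury, from fish injected with 4-hydroxytamoxifen, which induces the dominant-negative A-Fos (A-Fos(+)), or with ethanol (A-Fos(-)). The injured fish were 4 to 12 months old and of both sexes. A-Fos, junba and junbb cells were isolated on a density gradient and not sorted, and the junba and junbb reactions held 50000 cells against 5000 elsewhere. The labels do not give the promoter that drives these transgenes, and do not say whether replicates were separate pools on separate days, so p-values measure the spread between these libraries, which may be technical.

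Values are the authors' normalized, background-corrected read numbers per peak, rounded, each table scaled by itself. They are compared only within a table. The spacing of the values gave an estimated 468000 to 1452000 reads in nuclear peaks per library of the first table. In the second it ran from 811000 in A-Fos(-) replicate 1 down to 129000 in A-Fos(+) replicate 3, where 1 read was worth 2.88 units. Of 12 cardiomyocyte marker genes 11 had peaks in the first table (vmhc had none) but only myl7 in the second. The mitochondrial genome held 72.0% to 94.2% of all summed values and is not used below.

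The members were promoter peaks in nearly every case. Of the 50 in the first table, 45 had their centre within 500 bp of the annotated start site, at 9 to 357 bp, and the other 5 lay 924 bp or farther away. Of the 30 in the second, 29 were promoter peaks. Their median width was 291 bp against 343 bp for all 5775 promoter peaks of the first table, and 36 of the 45 (80.0%) had at least 50% of their length inside the gene, against 67.3% of all promoter peaks. Per 100 bp of peak their median was 11.7 units against 11.7 for all promoter peaks in the first table, and 9.08 against 12.6 in the second, where they were thus lower. The promoter of atp5mc1 (ENSDARG00000056008, chr3:23604025-23604565, build GRCz11, as are all coordinates here), which encodes the membrane ring subunit c of complex V, stood above all other members at 45.9 units per 100 bp. The lowest of the promoter members was cox4i2 at 6.44, and the distal atp6v0ca peak was at 3.41. The 28 member peaks found in both tables kept a similar order of level per 100 bp (Spearman's rho 0.683 across peaks, which overlap in sequence but can differ widely in width, as at atp5f1b with 541 and 163 bp).

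Across the groups of the first table the highest group mean of a member promoter was a median of 1.76 times the lowest. It ran from 1.12 times at atp5po to 6.22 times at ndufb10. This ratio also holds the spread between libraries, and it was not computed over all promoter peaks. The lowest mean at ndufb10, with junba, was only 4.5 units. The regenerating gata4:EGFP+ cells had the lowest mean at 25 of 45 promoters (55.6%, ties left out) and the highest at 1 (2.22%). Over all promoter peaks these shares were 47.9% and 8.61%. Uninjured myl7:nucDsRed+ cells had the highest mean at 19 (42.2%, against 24.4% of all promoters). As a share of the summed values of all promoter peaks, which does not depend on the scaling between libraries, the members held 0.744% and 0.732% in myl7:nucDsRed+, 0.653% and 0.669% in gata4:EGFP+, 0.657% and 0.646% in junba and 0.623% and 0.632% in junbb libraries. Both uninjured sorted libraries were thus above the other 6, and without atp5mc1 they were as well (0.636% to 0.648% against 0.558% to 0.588%). On the deposited scale the members summed to 2325 and 2289 units in myl7:nucDsRed+, 1709 and 1747 in gata4:EGFP+, 2260 and 2254 in junba and 2063 and 2232 in junbb libraries. All promoter peaks summed to 312305 and 312854, 261813 and 261130, 344175 and 349165, and 330902 and 353169 in the same order. The lower share thus went with higher promoter sums in junba and junbb, and with lower ones in gata4:EGFP+. In the second table A-Fos(+) libraries held 0.657%, 0.717% and 0.660% and A-Fos(-) libraries 0.703%, 0.727% and 0.614%, so these groups overlapped.

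**Figure D1:**
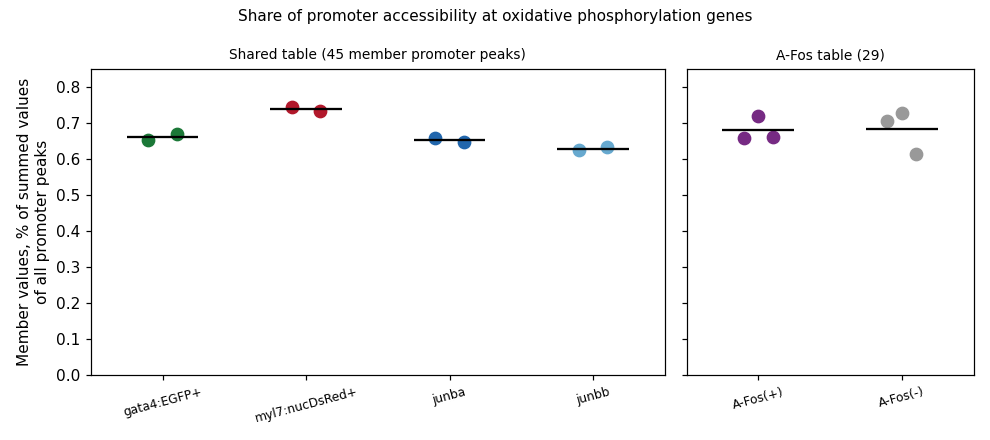
Summed values of the member promoter peaks as a percentage of the summed values of all promoter peaks, 1 point per library with the group mean as a line. The myl7:nucDsRed+ libraries lie at 0.732% and 0.744%, above the other 6 of their table, and A-Fos(+) and A-Fos(-) libraries overlap.

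In regenerating gata4:EGFP+ cardiomyocytes most respiratory chain promoters had lower values on the deposited scale than in uninjured cells. The fall passed the test at cox6a2 and cox5aa of complex IV and ndufs5 of complex I. Of 49 members tested (mean value at least 10), 0 rose, 3 fell and 46 were not called, where 18.9% of all tested peaks were called (limma, Benjamini-Hochberg adjusted p under 0.05 over all 14776 tested peaks). Over all tested peaks 6.61% fell and 12.3% rose, and over promoter peaks 7.78% fell and 2.57% rose, so the members' count of 3 (6.12%) was near the background. The median log2 change was −0.43 over the 45 member promoters and −0.21 over all 5653 tested promoter peaks. The change was below 0 at 35 of the 45 and at 3732 of the 5653, and after centring on promoters at 27 and 2868. The groups did not overlap, with the regenerating libraries lower, at 20 member promoters, and with them higher at 5. For all tested promoter peaks these shares were 39.9% and 14.7%.

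Complex I takes electrons from NADH. Of its 13 tested peaks 1 fell, at ndufs5 (ENSDARG00000006290, chr19:35361311-35361549), an accessory subunit. This peak held 12 and 13 units in the gata4:EGFP+ libraries and 32 and 45 in the myl7:nucDsRed+ libraries. Both regenerating libraries were below both uninjured ones, and the log2 change was −1.30 ± 0.38 (SE, n = 2 against 2, limma adjusted p = 0.0202). The other complex I promoters went both ways, with log2 changes of up to 0.75 at ndufs4, which was not called, and the median of the 11 promoters was −0.12. The promoter peak with the highest value of this complex, not set per length, was that of the accessory subunit ndufb5. It held 53 and 59 against 75 and 50 units, so the groups overlapped (−0.12 ± 0.28, adjusted p = 0.802).

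Complex II, succinate dehydrogenase, was represented by the iron-sulfur subunit sdhb and the membrane anchor sdhc, and complex III, which passes electrons from ubiquinol to cytochrome c, by 6 genes. None of these 8 promoters was called on the deposited scale. The Rieske iron-sulfur gene uqcrfs1 had a log2 change of 0.34, and the core gene uqcrc2a one of −0.83 (adjusted p = 0.0775, and 0.0377 after quantile normalization, where it was called), with 27 and 26 units in gata4:EGFP+ against 49 and 53 in myl7:nucDsRed+ libraries. The promoter peak with the highest value in complex III, that of the small subunit uqcrq, held 45 and 70 against 75 and 95 units (−0.55 ± 0.27, adjusted p = 0.170).

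Complex IV, cytochrome c oxidase, which hands the electrons to oxygen, had the lowest median of the complexes with more than 2 peaks, at −0.58. Its 9 promoters include ndufa4l, named for complex I but placed here because its mammalian relative NDUFA4 belongs to cytochrome c oxidase. Of the 9, 2 fell and 7 were not called. At 7 both regenerating libraries were below both uninjured ones, as they were at 39.9% of all tested promoter peaks. The promoter of cox6a2 (ENSDARG00000054588, chr3:31039615-31040166), whose mammalian counterpart is the heart and skeletal muscle isoform of subunit VIa, held 24 and 43 units in gata4:EGFP+ against 105 and 106 in myl7:nucDsRed+ libraries. Both regenerating libraries were below both uninjured ones, with a log2 change of −1.57 ± 0.30 (adjusted p = 0.00150), the largest change among the members in this comparison. At cox5aa (ENSDARG00000088383, chr25:29079702-29080200), a nuclear subunit that surrounds the catalytic core, the values were 37 and 52 against 85 and 105. Its groups did not overlap either, and the log2 change was −1.02 ± 0.28 (adjusted p = 0.0146). The promoter of cox5b2, the peak with the highest value in the complex, held 94 and 81 against 115 and 138 units and was not called (−0.51 ± 0.25, adjusted p = 0.164). The muscle-type gene of subunit VIII in mammals, cox8b, held 65 and 47 against 85 and 99 (−0.68, adjusted p = 0.100), and its general counterpart cox8a 26 and 30 against 35 and 46 (−0.46, adjusted p = 0.413).

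**Figure D2:**
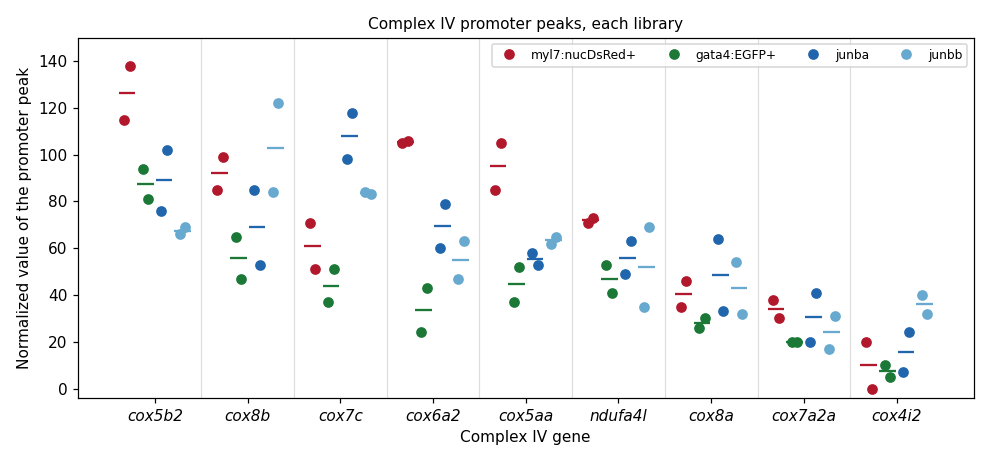
Normalized values of the 9 complex IV promoter peaks in each of the 8 libraries of the first table, with the mean of each group as a line and genes in order of mean level. At cox6a2 and cox5aa both gata4:EGFP+ libraries lie below all other libraries, and at cox4i2 the values of junbb (40 and 32) lie above the rest.

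Complex V showed log2 changes below 0 at each of its 10 tested promoters, from −0.03 at atp5po to −0.72 at atp5mea and atp5meb, and none was called. With libraries centred on their promoter peaks, which moved the median of all tested peaks from −0.06 to 0.14, only 6 of the 10 were below 0, whereas complex IV stayed at 8 of 9. The atp5mc1 promoter held 240 and 213 units in gata4:EGFP+ and 302 and 301 in myl7:nucDsRed+ libraries. These did not overlap, yet the change of −0.41 ± 0.20 did not pass (adjusted p = 0.171, 95% interval −0.83 to 0.02). The catalytic subunit gene atp5f1b held 42 and 43 against 46 and 47, a small difference that was not called (−0.12 ± 0.34, adjusted p = 0.847). The promoter with the lowest mean of all members, atp5mea, held 10 and 9 against 22 and 16 (−0.72 ± 0.48, adjusted p = 0.315).

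The 6 V-type ATPase promoters gave 0 calls and log2 changes from −0.78 at atp6v0cb to 0.65 at atp6v0a2b. The peak with the highest value among them, atpv0e2, was at 121 and 100 units against 100 and 95. The remaining member, lhpp, a phosphatase gene that acts on pyrophosphate and phosphohistidine, had a log2 change of −0.64 ± 0.40 (adjusted p = 0.279).

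**Figure D3:**
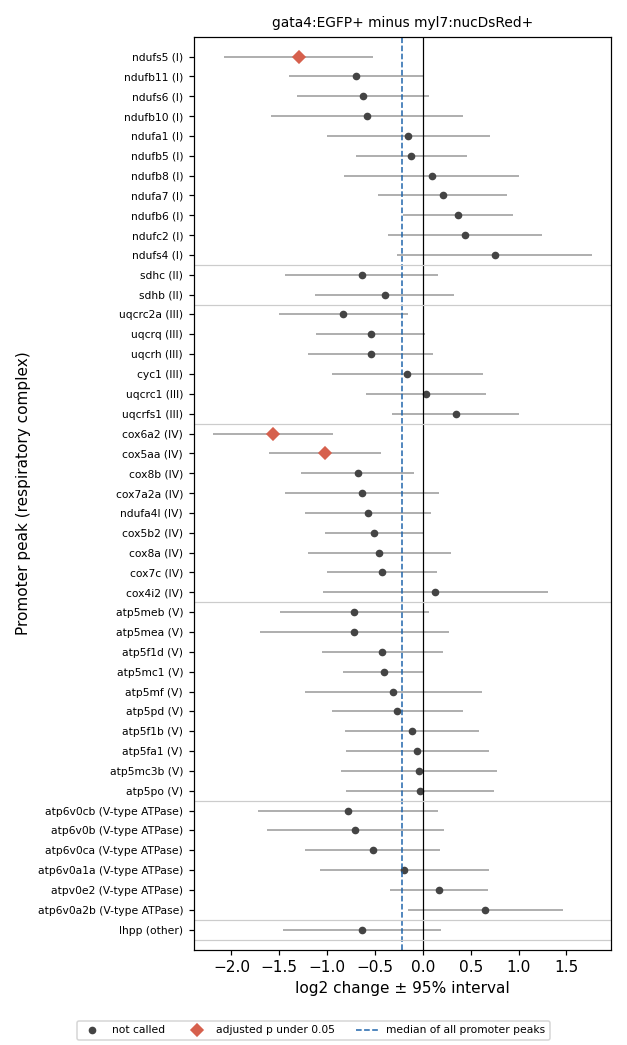
Log2 change of each member promoter peak in gata4:EGFP+ against myl7:nucDsRed+ cardiomyocytes with its 95% interval, grouped by complex. The 3 called promoters, cox6a2, cox5aa and ndufs5, are drawn as diamonds, all 10 complex V promoters lie below 0 on the deposited scale (6 of 10 after centring on promoters), and the dashed line is the median of all promoter peaks at −0.21.

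The calls depended on single libraries, though leaving out 1 leaves a group without a replicate and also cut the calls over all peaks. The log2 changes kept their sign, at −1.93 to −1.20 for cox6a2, −1.52 to −1.08 for ndufs5 and −1.24 to −0.80 for cox5aa. Leaving out gata4:EGFP+ replicate 1 left 0 members called (cox6a2 adjusted p = 0.0629, ndufs5 0.148, cox5aa 0.197), gata4:EGFP+ replicate 2 left 1 (ndufs5 0.124, cox5aa 0.0573) and myl7:nucDsRed+ replicate 2 lost both of these too (ndufs5 0.156, cox5aa 0.119). In the last case ndufb11, not called with all libraries (−0.69), was called beside cox6a2 (−1.22). It held 29 and 27 units in gata4:EGFP+ against 72 and 32 in myl7:nucDsRed+ libraries, and this fit kept only the 72. Injury cannot be told apart from the sorted reporter in this comparison, nor fewer cells of a type from less accessibility per cell. Cardiomyocyte marker peaks summed to 626 units in each gata4:EGFP+ library against 1343 and 1520 in myl7:nucDsRed+, with 6 of 13 peaks lower. The peaks of 10 of 12 endothelial and endocardial markers summed to 242 and 248 against 122 to 125, with 3 of 11 higher. Peaks of 5 of 10 epicardial and fibroblast markers summed to 131 and 132 against 55 and 60, with 1 of 3 tested peaks higher, at col1a2. Those of 2 of 8 leukocyte markers summed to 71 to 76 against 20 to 26, with the 1 tested peak, at irf8, higher. Those of 2 of 8 erythroid and thrombocyte markers summed to 62 to 74 against 137, with the 1 tested peak, at sptb, lower. No marker with a peak was at 0 in a whole group, tcf21 and ptprc had no peak, and the part of these cells in the result was not tested.

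Genes around the respiratory chain were taken from lists chosen with earlier results of these data known. Regulators of mitochondrial biogenesis gave 0 higher and 3 lower of 13 peaks, at 10 of 20 genes (median log2 change −0.22). Both called peaks of ppargc1a, the coactivator of mitochondrial biogenesis, lay 1660 and 3725 bp from the start site and fell by 1.90 and 0.98 on the log2 scale (adjusted p = 0.000626 and 0.0352). The promoter of esrrga, an estrogen-related receptor that binds genes of energy metabolism, fell from 235 ± 38.2 to 122.5 ± 10.6 units (mean ± SD, n = 2, log2 change −0.91, limma adjusted p = 0.0190). The citric acid cycle list, which also holds genes next to the cycle such as pcxa, gave 0 higher and 3 lower of 20 peaks (median −0.34). These were at ogdha (−1.08), mdh2 (−1.05) and pcxa (−0.75). Fatty acid oxidation gave 0 higher and 3 lower of 12 (median −0.24). These were at ucp3 (3843 bp from the start site), slc25a20 and cpt1ab, the last a gene of the carnitine step. Mitochondrial carriers and creatine kinases gave 0 higher and 5 lower of 11 (median −0.75). These 5 were the muscle creatine kinase gene ckma (−1.09), the mitochondrial creatine kinase gene ckmt2b (−1.38), the aspartate-glutamate carrier gene slc25a12 (−1.23), the outer membrane channel gene vdac1 (−0.90) and the phosphate carrier gene slc25a3b (−0.92). Assembly factors gave 0 calls of 14 (median −0.17). These counts stand beside the 6.61% of all tested peaks that fell.

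On the deposited scale the member promoters had a median change near 0 with junba and with junbb against uninjured myl7:nucDsRed+ cells, while single subunits went either way. With junba 1 member rose, 2 fell and 46 were not called, and with junbb 3 rose, 2 fell and 44 were not called. Of all tested peaks 26.1% were called with junba (10.3% higher, 15.9% lower) and 28.8% with junbb (12.6% higher, 16.3% lower). For promoter peaks these shares were 11.9% and 5.52% with junba, and also 11.9% and 5.52% with junbb. The median log2 change over the 45 member promoters was −0.01 with junba and 0.01 with junbb, against 0.16 and 0.17 over all tested promoter peaks. The change was below 0 at 23 of 45 with junba and 22 of 45 with junbb, against 2258 and 2124 of all 5653 tested promoter peaks. After centring on promoters both medians were −0.14, against 0.02 over all promoters in each. Then 27 and 32 of the 45 were below 0, against 2765 and 2730 of the 5653. Isolation, cell number and overexpression cannot be told apart here, and both comparisons share their control libraries with the one on regeneration. The junba and junbb cells were not injured either, and "uninjured" below stands for the sorted myl7:nucDsRed+ libraries only.

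In complex I the promoter of ndufb10 (ENSDARG00000028889, chr3:18410732-18410933), a membrane arm subunit, was low in both junba libraries. It held 1 and 8 units with junba, 16 and 6 with junbb and 17 and 39 in myl7:nucDsRed+ libraries. In the junba libraries 1 read was worth an estimated 1.19 and 2.03 units, so its values there were near the floor. Both junba values were below both uninjured ones (−1.82 ± 0.48, n = 2 against 2, limma adjusted p = 0.00867), and the change with junbb was not called (−1.03, adjusted p = 0.115). A distal peak assigned to ndufa7 at 3452 bp (ENSDARG00000036684, chr8:47800700-47800963) was the only called member away from a promoter. It held 20 and 14 units with junba against 38 and 46 in uninjured and 69 and 51 in regenerating libraries, and its fall with junba passed (−1.10 ± 0.35, adjusted p = 0.0229). The promoter of the same gene, a complex I accessory subunit, held 33 and 24 against 41 and 47 and was not called (−0.56, adjusted p = 0.213). In the opposite direction, the promoter of ndufs4 (ENSDARG00000052840, chr5:40485515-40485720), a subunit needed for full assembly of complex I, held 20 and 25 units with junbb, 13 and 22 with junba and 0 and 12 in uninjured libraries. It rose with junbb (1.57 ± 0.49, adjusted p = 0.0188) and was not called with junba (1.26, adjusted p = 0.0610). The junba change was called after quantile normalization (adjusted p = 0.0420) and with the replicate block (0.0453). It was not called after centring on promoters, with a pseudocount of 1 or without the filter. Of the fits with a library left out, it was called without junba replicate 1 (log2 change 1.55) or myl7:nucDsRed+ replicate 2 (2.14). The latter fit kept only the uninjured library at 0. Without junba replicate 2 or myl7:nucDsRed+ replicate 1 it was not called.

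In complex IV the muscle-type cox6a2 promoter held 47 and 63 units with junbb and 60 and 79 with junba, all below the 105 and 106 of the uninjured libraries. It fell with junbb (−0.89 ± 0.30, adjusted p = 0.0302) and was not called with junba (−0.58, adjusted p = 0.159). The cox5b2 promoter (ENSDARG00000068738, chr13:50375395-50375922) held 66 and 69 units with junbb and 76 and 102 with junba against 115 and 138. Its fall passed with junbb (−0.85 ± 0.25, adjusted p = 0.0127) and not with junba (−0.49, adjusted p = 0.149). Another pair of complex IV promoters rose, each in a single line only. At cox7c (ENSDARG00000104537, chr5:47727390-47727884), a small structural subunit, the values were 98 and 118 with junba, 84 and 83 with junbb and 71 and 51 in uninjured libraries. The rise with junba passed (0.79 ± 0.28, adjusted p = 0.0386), and the change with junbb was not called (0.44, adjusted p = 0.248). At cox4i2 (ENSDARG00000022509, chr23:18944114-18944382), whose mammalian counterpart is the isoform of subunit IV induced by low oxygen, the values were 40 and 32 with junbb, 7 and 24 with junba and 20 and 0 in uninjured libraries. Both junbb libraries were above all others, and the rise passed (1.87 ± 0.57, adjusted p = 0.0166).

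Complex II, complex III and complex V promoters gave 0 calls in both comparisons with all libraries on the deposited scale. The atp5mc1 promoter held 258 and 224 units with junba and 217 and 230 with junbb, against 302 and 301 (−0.32 and −0.42, adjusted p = 0.257 and 0.125). After centring on promoters its change with junbb was called (−0.57, adjusted p = 0.0367). Some junba changes were called only with a library left out. At atp5mea, with 2 and 16 units against 22 and 16, this was without junba replicate 2 (log2 change −1.77, and −0.97 with all libraries). At uqcrfs1, with 116 and 53 against 46 and 50, it was without the same replicate (1.19, and 0.66 with all). At atp5mf, with 8 and 10 against 40 and 13, it was without myl7:nucDsRed+ replicate 2 (−1.69, and −1.03 with all). Each of these fits left a group with a single library. Among V-type ATPase promoters that of atp6v0a2b (ENSDARG00000035565, chr5:24543586-24543869), a membrane subunit, held 29 and 34 units with junbb, 20 and 28 with junba and 15 and 7 in uninjured libraries. It rose with junbb (1.23 ± 0.39, adjusted p = 0.0211) and was not called with junba (0.89, adjusted p = 0.0974). The promoter of atpv0e2 held 193 and 112 with junba and 155 and 153 with junbb against 100 and 95. It was not called (0.57 and 0.63, adjusted p = 0.0911 and 0.0573). With junbb it was called after quantile normalization (adjusted p = 0.0419) and with the replicate block (0.0463), and with junba when junba replicate 2 was left out (0.95, adjusted p = 0.0148).

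**Figure D4:**
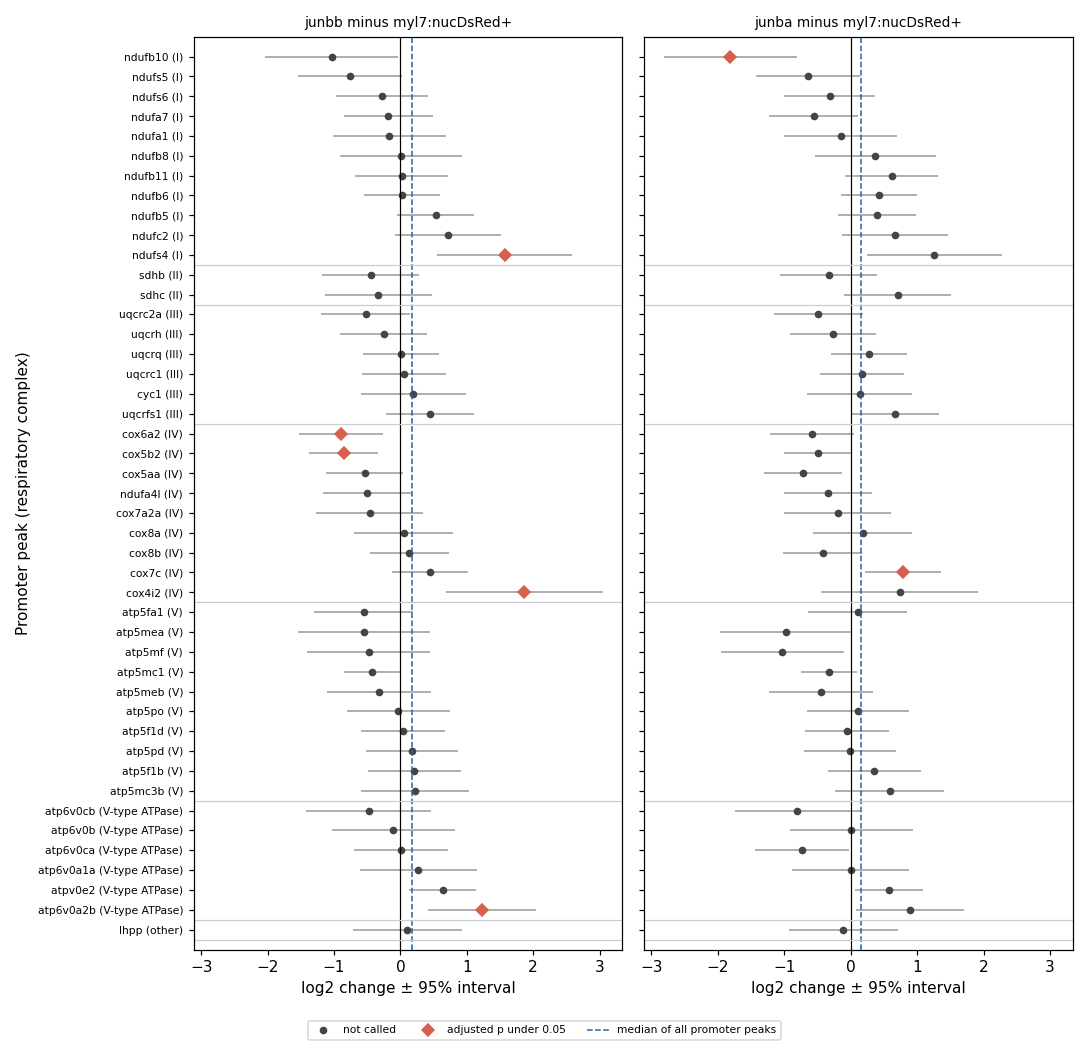
Log2 change of each member promoter peak with junbb (left) and junba (right) against myl7:nucDsRed+ cardiomyocytes, with 95% intervals and genes in the same order in both panels. Called promoters, drawn as diamonds, lie on both sides of 0, and the dashed lines mark the medians of all promoter peaks at 0.17 and 0.16.

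A muscle-type gene outside the rule fell in both lines. The promoter of cox7a1 (ENSDARG00000069464, chr15:20403016-20403310), the heart and skeletal muscle isoform of subunit VIIa in mammals, carries no KEGG term in the table and was named after its values were seen. It held 50 and 70 units in uninjured, 28 and 29 in regenerating, 18 and 14 in junba and 18 and 18 in junbb libraries. It fell with junba (−1.62 ± 0.35, limma adjusted p = 0.00241) and junbb (−1.48 ± 0.35, adjusted p = 0.00330), and its change in regeneration did not pass (−0.94 ± 0.35, adjusted p = 0.0668). The 2 other respiratory chain symbols without the term, atp5s and ndufb4, gave 0 calls in these comparisons. Among the members, the muscle-type cox8b was called in neither line. It held 85 and 53 units with junba and 84 and 122 with junbb, against 85 and 99 in myl7:nucDsRed+ libraries. Its log2 changes were −0.42 and 0.14 (limma adjusted p = 0.291 and 0.760). Of the peaks that carry both pathway terms, that of the V-type ATPase gene atp6v1ba rose with junba (1.13, adjusted p = 0.0201) and junbb (1.39, adjusted p = 0.00455).

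The 5 junbb calls were lost when junbb replicate 1 or junbb replicate 2 was left out, giving 0 of 49 called. Without myl7:nucDsRed+ replicate 1 the count was 3, and without its replicate 2 it was 1. With 1 library left out the log2 changes with junbb kept their sign. They ran from −1.09 to −0.70 at cox6a2, −0.98 to −0.73 at cox5b2, 0.86 to 1.60 at atp6v0a2b, 0.69 to 2.45 at ndufs4 and 0.71 to 3.03 at cox4i2. At cox4i2 and ndufs4 a myl7:nucDsRed+ library with a value of 0 bore on the size of the change. Without that library the log2 change was 0.71 at cox4i2 (limma adjusted p = 0.410) and 0.69 at ndufs4 (adjusted p = 0.353). With junba the ndufb10 call was lost without junba replicate 1 (adjusted p = 0.0642) or myl7:nucDsRed+ replicate 2 (0.140), and that of cox7c without junba replicate 2 (0.163) or myl7:nucDsRed+ replicate 2 (0.250). The distal ndufa7 call was lost without junba replicate 2 (0.104), myl7:nucDsRed+ replicate 1 (0.0595) or replicate 2 (0.134). After centring on promoters cox7c did not pass (0.0820), and after quantile normalization ndufa7 did not (0.0596). Cardiomyocyte marker peaks summed to 333 to 590 units with junba and 304 to 313 with junbb against 1343 to 1520, with 10 and 11 of 13 peaks lower and 1 higher in each. Endothelial and endocardial marker peaks summed to 403 to 451 and 654 to 703 against 122 to 125, with 8 and 10 of 11 higher. Epicardial and fibroblast marker peaks summed to 50 in each junba library and 90 to 99 with junbb against 55 to 60, and leukocyte ones to 18 to 42 and 23 to 25 against 20 to 26. Erythroid and thrombocyte ones summed to 24 to 33 and 41 to 42 against 137, with the 1 tested peak lower in each. The part of these cells in the result was not tested.

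Of the wider lists, regulators of biogenesis gave 0 higher and 3 lower of 13 peaks with junba, and 0 higher and 4 lower with junbb. The esrrga promoter fell in both (log2 change −1.26 and −1.45, adjusted p = 0.00163 and 0.000349), and the promoter of esrra, its relative, fell with junbb (−1.02, adjusted p = 0.0195). The same 2 distal peaks of ppargc1a fell with junba (−1.52 and −1.43) and junbb (−1.62 and −1.75). Fatty acid oxidation was split, with 2 higher and 2 lower of 12 with junba and 3 and 3 with junbb. The electron transfer dehydrogenase gene etfdh rose (1.21 and 1.13), as did the trifunctional enzyme gene hadhaa (0.96 and 0.83). A peak 3843 bp from the start site of ucp3 fell (−1.60 and −2.10). So did a peak 1374 bp from that of acadvl (−1.78 and −1.28), with means of only 3 and 5.5 units against 20.5. Carriers and creatine kinases gave 0 higher and 3 lower of 11 with junba and 0 higher and 2 lower with junbb, among them ckma (−2.17 and −2.45, adjusted p = 7.49e-05 and 1.82e-05). The citric acid cycle list gave 2 lower of 20 with junba, at pcxa and at a peak 2859 bp from the start site of mdh1aa. It gave 0 calls with junbb, and assembly factors gave 0 of 14 with either. These counts stand beside the shares of all tested peaks, 10.3% higher and 15.9% lower with junba and 12.6% and 16.3% with junbb.

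No member differed past the threshold between the lines that overexpress junba and junbb. In junba against junbb 0 of 49 members were called (smallest adjusted p = 0.382), and 2 had an unadjusted p under 0.05. Over all tested peaks 0.088% were called, and 10.1% had an unadjusted p under 0.05. The median log2 difference was 0.02 over member promoters and −0.01 over all promoters. The 95% interval of the difference lay between −1 and 1 at 29 of the 49 members, and its median half-width was 0.72, so that smaller differences were within the error. The widest differences, neither of them called, were −1.13 at cox4i2 and 1.04 at sdhc.

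Induction of A-Fos after cryoinjury gave 0 called members of 29 tested (limma, adjusted p of 1 at each), and 1 had an unadjusted p under 0.05. Over all 6012 tested peaks 0% were called, and 200 (3.33%) had an unadjusted p under 0.05. The median log2 change of the 28 tested member promoters was 0.04, against 0.00 over all tested promoter peaks, with 15 above and 13 below 0. The 95% interval lay between −1 and 1 at 22 of the 29 members. This fit did not pair libraries of the same number, and with a replicate block 0 members were called as well.

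The atp5mc1 promoter was again the highest member, with 160, 138 and 104 units in A-Fos(+) and 172, 138 and 147 in A-Fos(-) libraries. These overlapped, and the log2 change was −0.19 ± 0.26 (95% interval −0.74 to 0.35). Of complex I, ndufb5 held 50, 31 and 58 against 57, 43 and 26 units (0.15 ± 0.32). For complex II, sdhc held 22, 43 and 29 against 20, 39 and 30 (0.06 ± 0.34). The groups overlapped at all of these. In complex III uqcrh, a hinge protein gene, held 30, 66 and 55 against 26, 45 and 43 (0.33 ± 0.32). In complex IV cox5b2 held 41, 29 and 35 against 29, 48 and 44 (−0.17 ± 0.31), and cox5aa, one of those that fell in regeneration, 32, 32 and 20 against 20, 34 and 16 (0.25). Peaks of cox6a2 and ndufs5 were in the first table only.

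The groups did not overlap at 2 member promoters, both lower with A-Fos, and at 0 higher, where 3.26% and 2.65% of all tested promoter peaks did so. One was atp5fa1 (ENSDARG00000010149, chr21:5080786-5081001), the alpha subunit of the catalytic head of complex V, with 9, 12 and 9 units against 18, 15 and 43. Its log2 change of −0.91 ± 0.41 was the largest of the members and did not pass (limma adjusted p = 1). Its A-Fos(-) values were spread widely, with replicate 3 well above the others. The other was uqcrc1, a core subunit of complex III, with 24, 26 and 26 against 28, 35 and 33 (−0.28 ± 0.31). The V-type ATPase promoter atpv0e2 held 67, 99 and 87 against 58, 90 and 53 (0.33 ± 0.27), and lhpp 19, 9 and 9 against 10, 21 and 6. The promoter of atp5mc3b, another gene for subunit c, was below the mean of 10 and not tested, with 2, 7 and 9 against 12, 16 and 6 units.

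**Figure D5:**
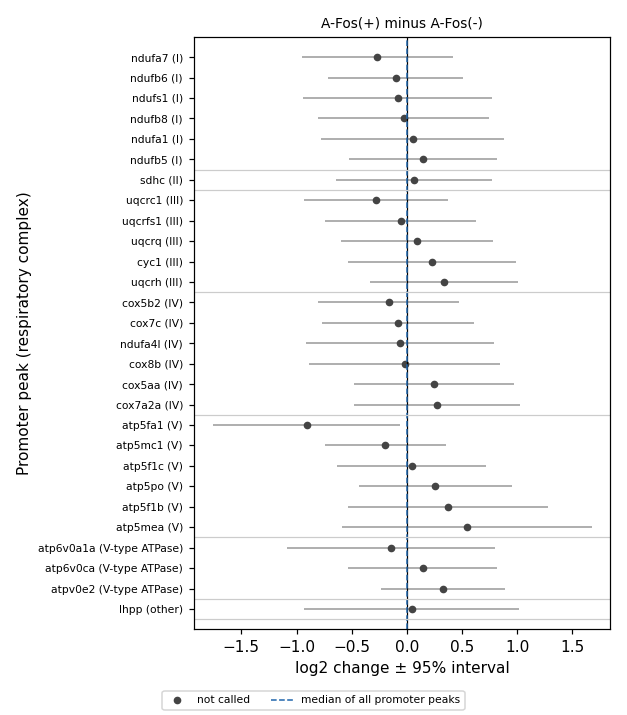
Log2 change of each tested member promoter peak in A-Fos(+) against A-Fos(-) wound border cardiomyocytes with its 95% interval, grouped by complex. No promoter was called, all but atp5fa1 have intervals that include 0, and the points lie around the median of all promoter peaks at 0.00.

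The wider lists gave 0 calls in this comparison, over 5 peaks of biogenesis regulators (median 0.14), 11 of the citric acid cycle (0.03), 6 of fatty acid oxidation (0.04), 5 of carriers and creatine kinases (0.12) and 8 of assembly factors (0.06). The single cardiomyocyte marker peak, at myl7, held 17 to 40 units with and 20 to 31 without A-Fos, the peaks of klf2a and klf2b summed to 63 to 72 and 70 to 81, and those of 2 leukocyte markers to 9 to 26 and 19 to 47.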

How the data were processed

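The deposited values are whole-number scores per peak rather than counts. Their names mark them as background-corrected and normalized by DESeq, and the similar medians of the libraries fit values that the authors scaled and rounded, each table by itself. A first table covers the 8 libraries of 4 groups and a second the 6 A-Fos libraries. The mapping filters, the shift of cut sites and the kind of background correction are not given in the sources used here. Distance to the start site and the fraction of a peak inside its gene are as deposited, per the file headers. Per the submitters' processing notes, tools were DESeq and DESeq2 (1.18.1), MACS2, Picard (2.18.16), STAR (2.6.1d), deepTools (2.5.7) and Trimmomatic (0.36), and the builds danRer11 and GRCz11. Whether coordinates count from 0 or 1 is not given in the sources used here.

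Values were tested as log2(value + 5) with limma 3.58.1 in R 4.3.3 (trend and robust, two-sided), for peaks with a mean of at least 10 and without the mitochondrial peak. Fits covered all groups of a table, and p-values were adjusted by Benjamini-Hochberg over all tested peaks. Reads per library were estimated from the spacing of values. Promoter peaks have their centre within 500 bp of a start site. The members and the gene lists were chosen with earlier results of these data known. By rule, members that were called, the promoter peak with the highest mean of each complex and that with the lowest mean were named. The others were named after their values were seen, as examples of their complex. Alternatives were a pseudocount of 1, no filter, centring on promoter peaks, quantile normalization, a replicate block and each replicate left out.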

Additional observations from a re-analysis of the deposited data

How the results depend on the processing

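With 2 libraries a group, single libraries set most limits. Left-out replicates gave 457 to 1396 called peaks in regeneration (2795 with all), 1971 to 4391 with junba (3857), 2066 to 2872 with junbb (4259) and 1 to 327 between junba and junbb (13), and member calls of 0 to 3, 2 to 4, 0 to 3 and 0 to 0. The median log2 change of member promoters ran from −0.40 to −0.34, −0.21 to 0.033, −0.12 to 0 and −0.056 to 0.088, and with A-Fos from −0.04 to 0.18. A pseudocount of 1 gave 1738 calls in regeneration, and quantile normalization 5 member calls. Centring on promoters moved the member medians to −0.22 in regeneration, −0.14 with junba and −0.14 with junbb, and quantile normalization that of junba to 0.10. Of all called peaks 65.0% were higher in regeneration, 84.2% after centring and 56.2% after quantile normalization. With junba these were 39.3%, 28.3% and 48.7%, and with junbb 43.6%, 32.8% and 48.6%. In these comparisons the member median was below that of all promoters under each scaling.

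Among members named by rule, uncalled changes that turned sign were ndufb5 in regeneration (0.081 after centring, 0.0098 after quantile normalization, −0.39 to 0.15 with replicates left out), sdhb in regeneration (−0.80 to 0.00482), lhpp with junba (0.018 after quantile normalization, −0.40 to 0.18), uqcrq with junbb (−0.14 after centring, −0.15 to 0.17) and lhpp with junbb (−0.048 after centring, −0.23 to 0.44). Between junba and junbb these were ndufb5 (−0.37 to 0.10), sdhb (−0.041 to 0.28), atpv0e2 (−0.44 to 0.32), lhpp (−0.55 to 0.12) and atp5mea (−1.22 to 0.36). With A-Fos they were ndufb5 (−0.13 to 0.38), sdhc (−0.16 to 0.26) and lhpp (−0.24 to 0.38). Of the other members, centring turned more. Besides complex V, promoters below 0 in regeneration went from 6 to 4 of 11 in complex I. In complex III and among V-type ATPase genes they went from 4 to 3 of 6. With junba they went from 6 to 8 of 10 in complex V and 2 to 4 of 6 among V-type ATPase genes. With junbb they went from 5 to 8 of 11 in complex I, 2 to 4 of 6 in III and 5 to 7 of 9 in IV. In V they went from 6 to 7 of 10, and among V-type ATPase genes from 2 to 3 of 6. These counts include members named by rule. Calls absent with all libraries and deposited values arose 18 times, at 12 genes. Those not given in the report were ndufb2 (distal) in regeneration after quantile normalization, and with junba cox5aa after centring, atp6v0a1b (distal) without junba replicate 1, and ndufb11 and cox4i2 without myl7:nucDsRed+ replicate 1. The cause was not tested.

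To look for pairing, the group mean of the log2 values was subtracted at each peak, and the remaining deviations were correlated between libraries of different groups. These are not correlations of the library profiles themselves. Deviations of same-numbered replicates correlated at −0.03 to 0.02 in the first table and at 0.280, 0.256 and 0.0823 in the A-Fos table. Those of differently numbered A-Fos(+) and A-Fos(-) libraries correlated at −0.24 to 0.03, below each same-numbered pair. Deviations from a group mean cancel out within the group, so these lower values are partly fixed by the same-numbered ones. They are not separate evidence of pairing. The labels do not say whether the numbers mark pairs. The main fits did not pair them, so a pairing in the A-Fos table would not be in its errors and intervals. With the replicate block, member calls were 3 in regeneration, 4 with junba, 6 with junbb, and 0 between junba and junbb and with A-Fos. All-peak calls with this block were 2744, 3882, 4250, 17 and 0.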
